A study of Homo sapiens with 8 samples.

Results

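Krueppel-like factors are zinc finger transcription factors, and 10 genes of the family, KLF2, KLF3, KLF4, KLF6, KLF7, KLF9, KLF10, KLF11, KLF13 and KLF16, were followed in foam cells given the gold compound auranofin. They were the rows with these symbols, 10 of the 62700 rows in the deposited table of gene counts. The cells were THP-1, a human monocytic leukaemia line, turned into macrophages by 72 h of PMA, a phorbol ester, at 50 ng/mL, and then loaded with lipid by acetylated LDL (AcLDL) for 48 h. Of 8 poly-A RNA libraries, 4 came from cells kept in vehicle (DMSO, under 0.1% by volume) and 4 from cells kept in 0.5 µM auranofin (AF), a known inhibitor of thioredoxin reductase. Both groups share the PMA and the lipid load. By the treatment protocol the drug or vehicle was started 24 h before AcLDL and stayed on until harvest, while the design text of the series puts the drug after loading. The comparison asks how the drug alters expression in foam cells. No genetic change separates the groups, all libraries come from 1 cell line, and the labels do not say whether the replicates were separate cultures, so p-values measure only how these libraries vary, and that variation may be technical. Libraries are named by group and replicate number, such as DMSO 1 or AF 1. DMSO 1 and DMSO 2 share a library name stem, as do DMSO 3 and DMSO 4, AF 1 and AF 2, and AF 3 and AF 4, and what the stem stands for is not stated.

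Members of the family bind GC-rich and CACCC-type DNA through a conserved run of C-terminal zinc fingers, and differ in the N-terminal parts that recruit coactivators or corepressors. KLF2 and KLF4 are known as atheroprotective factors: laminar flow raises them in endothelium through the kinase ERK5 and MEF2 factors, and in macrophages they restrain NF-kB-driven genes. KLF6 and KLF7 are mainly activators, KLF3 is a repressor that works with CtBP proteins, and KLF9, KLF10, KLF11, KLF13 and KLF16 are repressors that can recruit SIN3A.

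Depth was 19336073 to 32325981 counts per library. AF 1 stood apart. It gave 27.1% of its counts to 10 entries inside the ribosomal RNA repeats, where the remaining 7 libraries gave 0.589% to 0.758%. Its composition (TMM) factor was 0.679 and theirs were 1.04 to 1.08. The 10 macrophage markers checked were all tested. Of them 2 rose (CD14 and ITGAM) and 1 fell (LYZ), where 7.62% of all genes tested were higher and 7.81% lower. CD68 had only 3 to 109 counts per library. The summed level of these markers was 4788 to 5510 CPM (the usual per-depth unit, with library sizes scaled by the TMM factors) in DMSO and 4247 to 4668 CPM in AF. Of 14 markers of other cell types, 11 were too low to be tested, and MS4A1, HBB and EPCAM were at 0 in every library; their sum was 5.57 to 6.60 CPM in DMSO and 5.26 to 5.87 CPM in AF. The part of these differences in the results was not tested. In bulk RNA, fewer cells that express a gene cannot be told apart from less RNA per cell.

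Promoter windows from RefSeq (GRCh38.p14) were held for 8 of the 10 genes, all but KLF3 and KLF10. Those of KLF2 and KLF4, the atheroprotective pair, and of KLF16, which fell most, are printed 5′ to 3′ as the 250 bases before the start that the RefSeq table uses, each on its own line. That start is not always the end of the GENCODE 29 gene given with the values: the KLF4 window lies inside the GENCODE span of KLF4 but outside its exons, and 9 bases of the KLF2 window lie in a KLF2 exon. Capitals mark every match, on either strand, to the GC box (GGGCGG), the CACCC box (CACCC), the E-box (CACGTG) or the MEF2 consensus motif. A match is a description and not a shown binding site.

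KLF2 (chr19:16324576-16324825, plus strand): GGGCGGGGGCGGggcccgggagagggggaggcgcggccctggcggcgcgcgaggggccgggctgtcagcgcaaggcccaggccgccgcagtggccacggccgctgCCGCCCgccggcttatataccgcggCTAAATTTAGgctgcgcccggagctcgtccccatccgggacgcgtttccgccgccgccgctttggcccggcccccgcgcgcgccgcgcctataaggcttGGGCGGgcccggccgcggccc

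KLF4 (chr9:107489770-107490019, minus strand): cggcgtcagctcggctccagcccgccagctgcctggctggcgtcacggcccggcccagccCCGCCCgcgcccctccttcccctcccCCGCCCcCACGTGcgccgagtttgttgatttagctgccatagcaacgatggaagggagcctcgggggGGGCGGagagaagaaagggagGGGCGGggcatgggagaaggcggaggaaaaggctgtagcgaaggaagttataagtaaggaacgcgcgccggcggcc

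KLF16 (chr19:1863580-1863829, minus strand): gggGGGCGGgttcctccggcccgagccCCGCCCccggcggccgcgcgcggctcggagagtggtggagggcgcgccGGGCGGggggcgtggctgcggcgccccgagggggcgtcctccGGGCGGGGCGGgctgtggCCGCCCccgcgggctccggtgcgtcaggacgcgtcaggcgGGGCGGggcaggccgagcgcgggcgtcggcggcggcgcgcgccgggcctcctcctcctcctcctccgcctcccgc

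The KLF2 window held 4 GC boxes and the only MEF2 match among the members' 12 windows, starting 120 bases before the RefSeq start (position -120) and reading CTAAATTTAG. The KLF4 window had 4 GC boxes, 1 of them beside an E-box, and the KLF16 window had 7 GC boxes, with overlapping matches counted, and a GC content of 86.4%. A GC box occurred in 8 of the 12 member windows and in 42.6% of all 35116 windows of this length. An E-box was present in 4 of the 12 (6.34% of all), a CACCC box in 4 (54.7%) and the MEF2 motif in 1 (2.8%). The 12 windows came from 8 genes, with several from KLF7 and from KLF11, so they are not independent. Some lay largely in exons of their own gene: 180 of 250 bases in the KLF11 window with an E-box and 238 in a KLF7 window. GC box and CACCC box matches can overlap. The median GC content of all windows was 58.0%.

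KLF2 was almost unread in these foam cells. Its counts were 6, 2, 2 and 3 in DMSO replicates 1 to 4 and 0, 6, 9 and 5 in AF replicates 1 to 4, so the groups overlapped and the gene did not pass the filter on low counts. Summed over libraries, 13 counts in DMSO (exact Poisson 95% interval 6.92 to 22.2) and 20 in AF (12.2 to 30.9) correspond to 0.131 and 0.184 CPM; the intervals cover counting error only. The 0 in AF 1 allows up to 3 counts, or 0.159 CPM. A change of KLF2 was not detectable at this depth. KLF2 (ENSG00000127528.5) spans chr19:16324817-16327874 on GRCh38, and GENCODE 29 places no other gene's exon over its own. The annotation behind the counts is not given in the sources used here. CD68, a standard macrophage marker, also had low counts in the same table. Whether reads of either gene were lost was not tested, so the low KLF2 counts are not read here as absence of the transcript.

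KLF4, by contrast, was expressed, and its group mean hid a spread among the drug-treated libraries. It stood at 23.7, 23.9, 23.7 and 22.5 CPM in DMSO replicates 1 to 4 and at 30.1, 21.5, 21.7 and 28.7 CPM in AF replicates 1 to 4. AF replicates 1 and 4 lay above every DMSO library and AF replicates 2 and 3 below every one. The means were 23.5 ± 0.664 and 25.5 ± 4.54 CPM (SD, n = 4 each). Of the tested members, KLF4 alone had AF values both above and below all of DMSO. A weaker trait, the lowest AF values in AF replicates 2 and 3, was shared by KLF6, KLF7, KLF9, KLF10 and KLF11. KLF3, KLF13 and KLF16 did not have it, and its share over all genes was not counted. Over all genes the libraries most alike were DMSO 2 with DMSO 3 (chi-square per degree of freedom 2.78), AF 2 with AF 3 (4.10) and DMSO 1 with DMSO 4 (4.62). KLF4 did not pass the test, with a log2 fold change of 0.12 ± 0.12 (SE) and a 95% interval of -0.14 to 0.37 (edgeR, adjusted p = 0.547). The estimate was 0.021 without AF 1, 0.053 without AF 4 and 0.19 without AF 2 or AF 3. The profile of KLF4 over the 8 libraries was most like those of LEO1, ID3 and RGCC among 10987 genes compared, with root-mean-square differences of 0.383, 0.410 and 0.413 between standardised log2 CPM. ID3, an inhibitor of helix-loop-helix factors, was highest in AF replicates 1 (31.6 CPM) and 4 (21.1 CPM). In AF replicates 2 and 3 it was at 14.9 and 14.1 CPM. ID3 was picked for its likeness to KLF4 over these same libraries, so the shared split is not a separate observation. KLF4 (ENSG00000136826.14) lies at chr9:107484852-107490482.

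**Figure D1:**
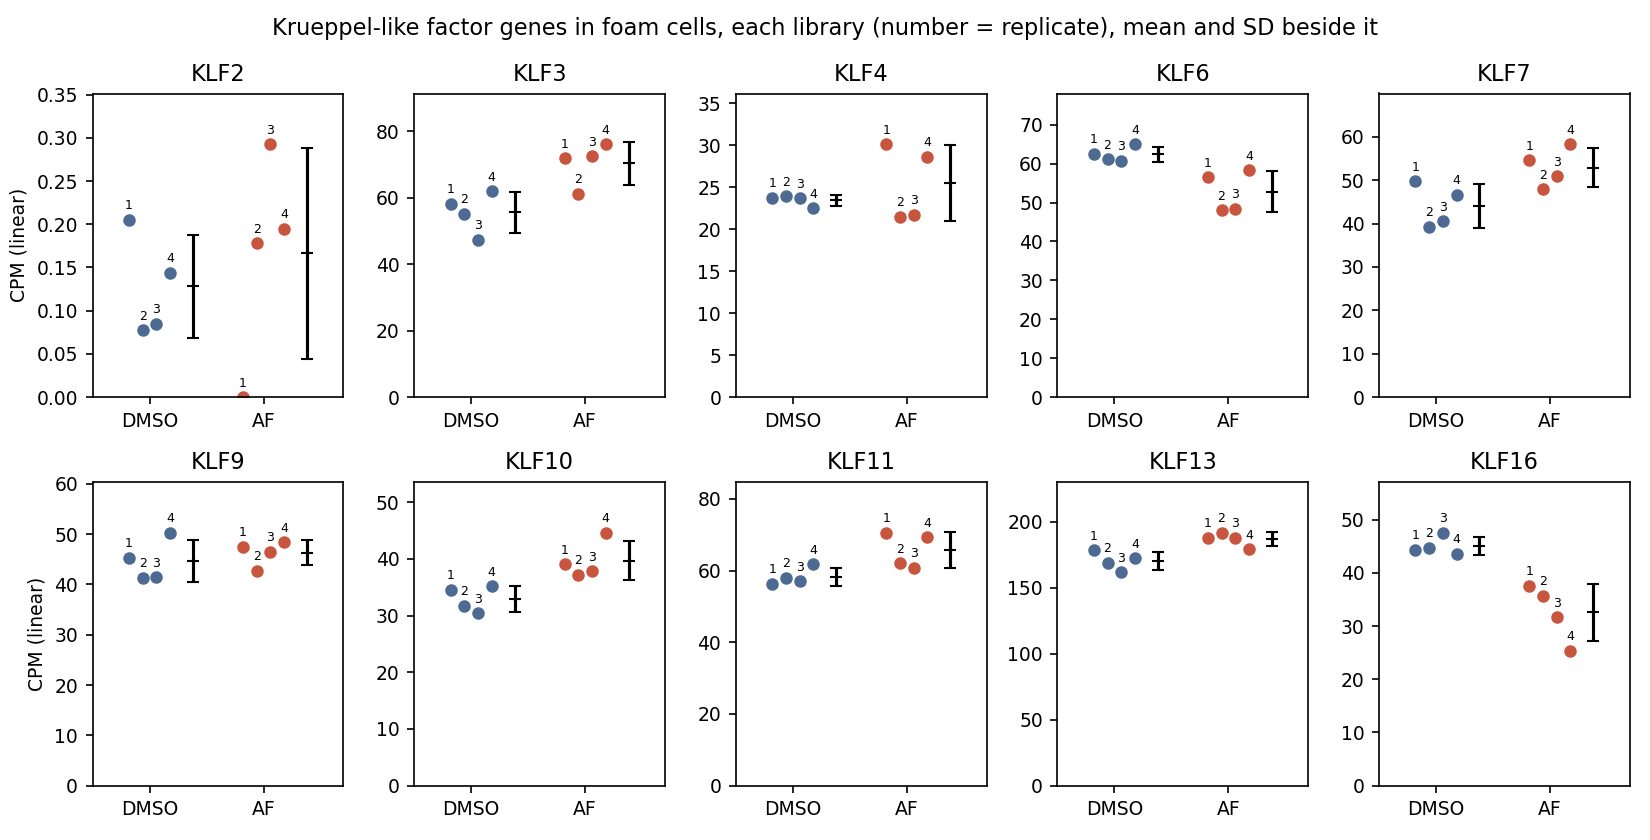
CPM of the 10 genes in each library, with the replicate number at each point and the group mean and SD beside it. All axes start at 0 and differ in range; the KLF16 and KLF6 points of AF lie below all DMSO points, the KLF10 and KLF13 points lie above them, and the 4 AF points of KLF4 lie on both sides of DMSO.

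With auranofin, KLF3 and KLF10 rose and KLF6 and KLF16 fell, so 4 of 9 tested members changed, 2 in each direction. The background was 15.4% of the 17535 genes tested, of which the higher ones made 7.62% and the lower ones 7.81% of all tested (edgeR, Benjamini-Hochberg, threshold 0.05). Changes were small: the tested members ran from -0.47 to 0.34 on the log2 scale, with a median of 0.13, against a median of 0.005 for all genes. Group values did not overlap for KLF6 and KLF16 (lower) and KLF10 and KLF13 (higher), 4 of 9 members, against 19.5% of all genes tested (9.86% higher and 9.68% lower). Without AF 1, KLF3, KLF6 and KLF16 were still called and KLF10 was not. The sum of the 10 genes was 537 ± 23.2 CPM in DMSO and 573 ± 22.9 CPM in AF (SD, n = 4 each), and its ranges, 511 to 559 and 548 to 596 CPM, overlapped. When libraries were scaled by their totals and no TMM factor, the median of all genes shifted by -0.15. In that scaling KLF16 was the 1 member called, and the estimates of KLF4, KLF9 and KLF13 were negative.

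KLF16 gave the largest change of the tested members. This repressor gene, first described as a regulator of dopamine receptor promoters, was at 44.4, 44.7, 47.5 and 43.6 CPM in DMSO replicates 1 to 4. In AF replicates 1 to 4 it was at 37.6, 35.7, 31.7 and 25.3 CPM, each below the lowest DMSO library. The mean went from 45.1 ± 1.72 to 32.6 ± 5.41 CPM (SD, n = 4 each), a log2 fold change of -0.47 ± 0.10 (SE; edgeR, adjusted p = 0.00725). The call held in each of the 16 alternatives run, which included leaving out every library in turn, with estimates from -0.64 to -0.37. KLF16 (ENSG00000129911.8) lies at chr19:1852399-1863568, and 16.35% of its exon bases are covered by an antisense entry that had 0 counts in every library.

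KLF6, an activator that is widely expressed and known to favour inflammatory gene expression in macrophages, also fell. Its values were 62.6, 61.1, 60.8 and 65.0 CPM in DMSO replicates 1 to 4 and 56.5, 48.1, 48.4 and 58.3 CPM in AF replicates 1 to 4. The groups did not overlap, and AF replicates 2 and 3 were the lowest. The log2 fold change was -0.24 ± 0.07 (edgeR, adjusted p = 0.0306). Dropping a single library ended the call in 6 of 8 cases: DMSO 1 (adjusted p = 0.0726), DMSO 2 (0.0663), DMSO 3 (0.0591), DMSO 4 (0.0697), AF 2 (0.0943) or AF 3 (0.123), and held without AF 1 (0.0268) or AF 4. KLF6 (ENSG00000067082.14) lies at chr10:3775996-3785281.

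KLF7, the closest relative of KLF6 in the set and best known from neuronal development, had the opposite sign. It was at 49.7, 39.3, 40.5 and 46.6 CPM in DMSO replicates 1 to 4 and 54.6, 47.9, 50.8 and 58.3 CPM in AF replicates 1 to 4, and the groups overlapped. With a log2 fold change of 0.26 ± 0.09 it just missed the threshold (edgeR, adjusted p = 0.0501), and it passed in 8 of the 16 alternatives, among them DESeq2 (0.0307) and the fits without DMSO 1 (0.0347) or AF 2 (0.0412). KLF7 (ENSG00000118263.14) lies at chr2:207074137-207167267. Within each library, the log2 ratio of KLF6 to KLF7 counts, which needs no scaling, was 0.33, 0.64, 0.58 and 0.48 in DMSO replicates 1 to 4 and 0.051, 0.0062, -0.072 and 0 in AF replicates 1 to 4. KLF6 thus had more counts than KLF7 in every DMSO library and about as many in the AF libraries. The difference between group means was -0.51 (exact two-sided permutation test, p = 0.0286, the smallest that 4 against 4 libraries can give; 0.0714 adjusted over the 5 ratios tested).

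KLF3, a CtBP-dependent repressor active in blood and fat cells, rose. It was at 58.2, 55.1, 47.3 and 61.8 CPM in DMSO replicates 1 to 4 and at 71.8, 61.1, 72.4 and 76.1 CPM in AF replicates 1 to 4. AF 2 lay just below DMSO 4, and the other AF libraries lay above all of DMSO. The mean rose from 55.6 ± 6.18 to 70.3 ± 6.43 CPM (SD, n = 4 each), a log2 fold change of 0.34 ± 0.08 (edgeR, adjusted p = 0.0130). The call held with each library left out, with estimates of 0.27 to 0.40. KLF3 (ENSG00000109787.12) lies at chr4:38664196-38701042, and its antisense neighbour KLF3-AS1, which covers 4.22% of its exon bases, had 2 to 14 counts per library.

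KLF10 and KLF11, the TGF-beta-inducible pair known as TIEG proteins, both had positive estimates, and KLF10 alone of them passed the test. KLF10 was at 34.6, 31.7, 30.4 and 35.2 CPM in DMSO replicates 1 to 4 and 39.1, 37.2, 37.9 and 44.6 CPM in AF replicates 1 to 4, without overlap. Its log2 fold change of 0.27 ± 0.09 had an adjusted p of 0.0481 (edgeR), and leaving out any 1 of the 8 libraries lost the call (adjusted p 0.0501 without AF 1 to 0.165 without DMSO 3). KLF11 was at 56.3, 58.0, 57.0 and 61.8 CPM in DMSO and 70.6, 62.1, 60.8 and 69.4 CPM in AF, each given for replicates 1 to 4. AF 3 lay below DMSO 4, and the log2 fold change of 0.17 ± 0.06 did not pass (edgeR, adjusted p = 0.0773). The log2 ratio of KLF10 to KLF11 counts was -0.82 ± 0.09 in DMSO and -0.73 ± 0.09 in AF (SD, n = 4 each), a difference of 0.094 (exact two-sided permutation test, p = 0.2; 0.333 adjusted over the 5 ratios). With so few libraries this does not show that the pair moved equally. KLF10 (ENSG00000155090.14) lies at chr8:102648779-102655902 and KLF11 (ENSG00000172059.10) at chr2:10042849-10054836.

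KLF9 and KLF13 did not pass the test. KLF9, a repressor gene raised by glucocorticoids and by oxidative stress through NRF2, was at 45.3, 41.4, 41.5 and 50.3 CPM in DMSO replicates 1 to 4 and 47.5, 42.7, 46.5 and 48.4 CPM in AF replicates 1 to 4. The AF values lay inside the DMSO range, and the log2 fold change was 0.05 ± 0.08 with a 95% interval of -0.11 to 0.21 (edgeR, adjusted p = 0.686). KLF13, known as an activator of the chemokine gene CCL5 in T cells, was the most abundant member, at 178, 169, 162 and 172 CPM in DMSO replicates 1 to 4 and 188, 192, 188 and 179 CPM in AF replicates 1 to 4. Its groups did not overlap, but the log2 fold change was only 0.13 ± 0.05 (edgeR, adjusted p = 0.0894; 0.0442 without AF 4). The log2 ratio of KLF9 to KLF13 counts differed by -0.077 between groups (exact two-sided permutation test, p = 0.4; 0.5 adjusted over the 5 ratios). KLF9 (ENSG00000119138.4) lies at chr9:70384597-70414624 and KLF13 (ENSG00000169926.10) at chr15:31326855-31435665.

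KLF13 and KLF16, both repressors of the SIN3A-binding branch, parted. The log2 ratio of KLF13 to KLF16 counts was 2.01, 1.92, 1.77 and 1.98 in DMSO replicates 1 to 4 and 2.32, 2.42, 2.57 and 2.82 in AF replicates 1 to 4. Every AF library lay above every DMSO library, and the means differed by 0.62 (exact two-sided permutation test, p = 0.0286, the smallest possible; 0.0714 adjusted over the 5 ratios). The ratio of KLF2 to KLF4, with 0 to 9 KLF2 counts per library, differed by -0.15 (p = 0.914 in the same exact test and 0.914 adjusted) and carries little information.

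**Figure D2:**
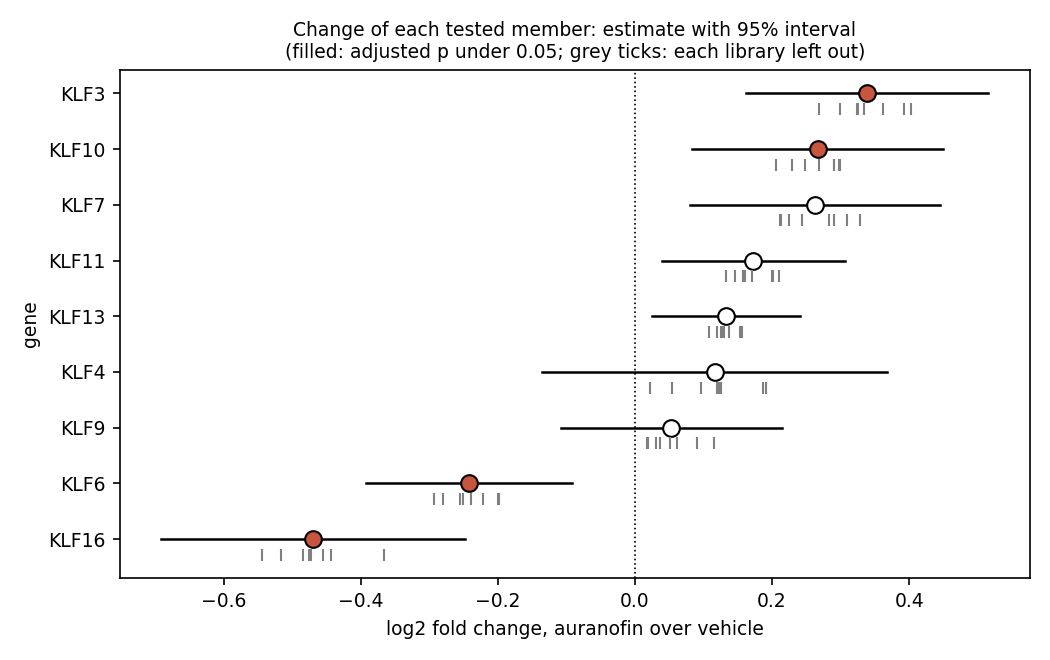
Log2 fold change of the 9 tested members, auranofin over vehicle, with the 95% interval as a line and the estimate with each library left out as grey ticks. Filled points passed an adjusted p of 0.05; KLF3 and KLF10 lie to the right of 0, KLF6 and KLF16 to the left, and no leave-one-out tick of these 4 crosses 0.

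**Figure D3:**
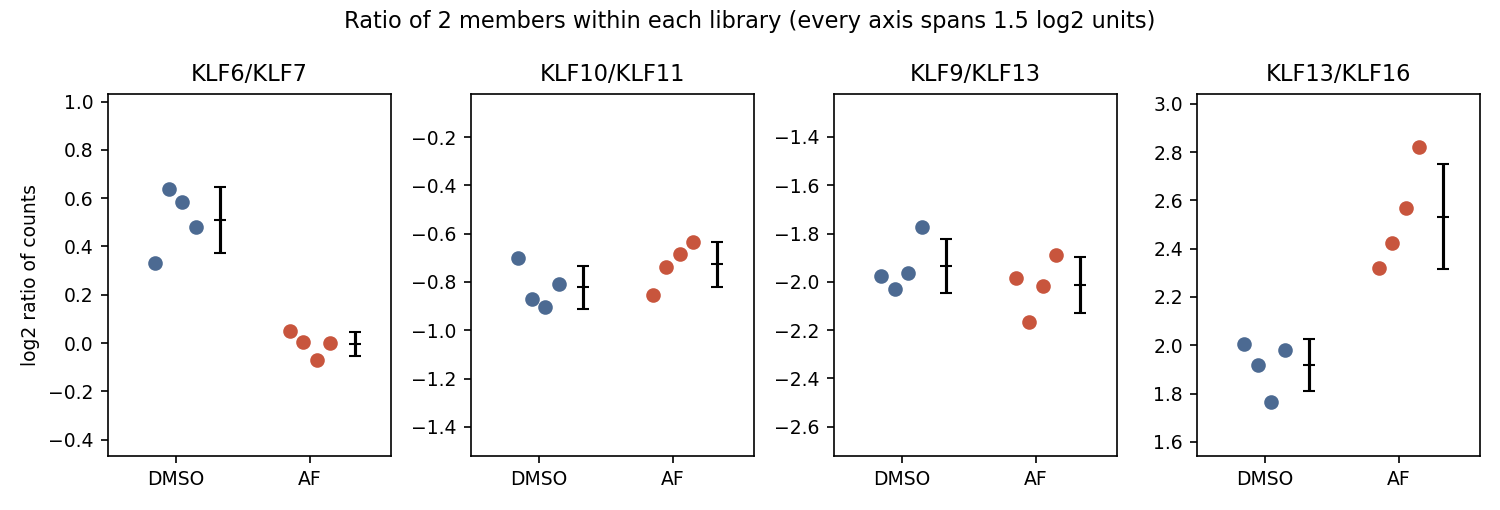
Log2 ratio of the counts of 2 members inside each library for 4 of the 5 pairs, with the group mean and SD beside the points; every axis spans the same range. The AF points of KLF6/KLF7 lie below and those of KLF13/KLF16 above all DMSO points, and the other pairs overlap.

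Levels were compared between genes per kilobase of exon (CPM per kb, merged exons of GENCODE 29). The merged length takes in the exons of every annotated transcript, and which transcripts were in use was not tested. SD and overlap cover the spread between libraries and not this length, so the order holds for these lengths alone. In DMSO the order from the top was KLF13 (18.1 ± 0.730 CPM per kb; SD, n = 4), KLF16 (15.2 ± 0.582), KLF11 (12.7 ± 0.533) and KLF6 (10.2 ± 0.312), and no library value of one overlapped the next. KLF3 (8.83), KLF9 (8.62) and KLF10 (8.24 CPM per kb) followed with overlapping values, then KLF4 (6.41), KLF7 (4.75) and KLF2 (0.063 CPM per kb), each apart from the next. In AF, KLF13 stayed on top (19.8 ± 0.572 CPM per kb) and KLF11 came after it (14.3 ± 1.08). KLF16 came behind KLF3, at 11.02 ± 1.83 CPM per kb, and its library values overlapped those of KLF3 above it (11.2 ± 1.02) and KLF10 below it (9.92 ± 0.845). From KLF3 down to KLF7 every neighbour overlapped the next in AF, so the order there is not resolved.

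**Figure D4:**
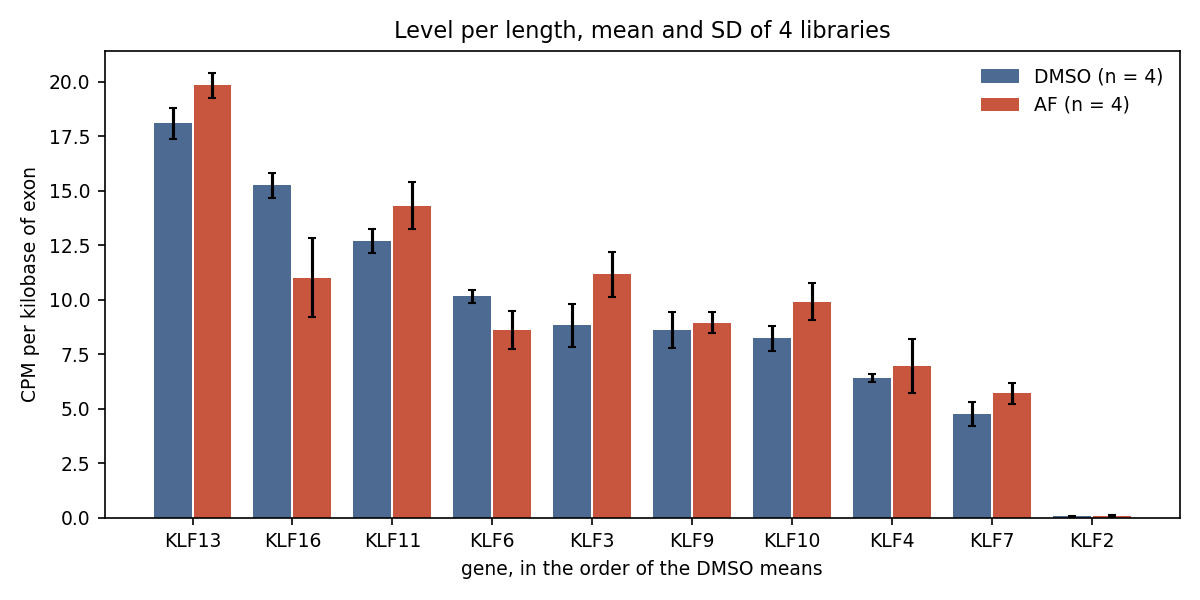
Level per length of the 10 genes, CPM per kilobase of exon on an axis from 0, as the mean of 4 libraries with its SD for DMSO and AF. Genes are in the DMSO order; KLF16 went from 15.2 to 11.02 CPM per kb, and KLF2 is close to 0 in both groups.

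Other genes of the family, of its pathway and of linked responses were taken from 9 lists, chosen with earlier results of these data known. Of their 118 tested genes 33 (28.0%) were higher and 7 (5.93%) lower, against 7.62% and 7.81% of all genes tested. Scaled by library totals the numbers were 7 and 4. Of the 33 higher genes, 9 were in the glucocorticoid and clock list and 7 in the oxidative stress list. The shares are thus a description and not a test of the KLF pathway. Among 17 further KLF and SP genes, relatives that bind the same GC-rich sites, 9 were tested and SP9 alone rose (log2 fold change 0.32 ± 0.10, from 21.8 ± 1.64 to 27.3 ± 2.37 CPM; edgeR, adjusted p = 0.0385). Its call was lost without DMSO 1 (0.0649), DMSO 2 (0.121), DMSO 3 (0.0847), AF 1 (0.0564), AF 2 (0.0630) or AF 3 (0.0761), and with libraries of a name stem summed (0.0724). SP1, the ubiquitous GC box factor, had a log2 fold change of -0.006 ± 0.05 and levels of 151 ± 4.81 CPM in DMSO and 150.2 ± 1.98 CPM in AF. SP3 had 0.20 ± 0.08 (adjusted p = 0.0996), and passed without DMSO 4 (0.0337) or AF 2 (0.0420). KLF5 (0.24 ± 0.23) and KLF12 (-0.17 ± 0.19) were low, at under 4 CPM, and did not pass.

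In the ERK5-MEF2 arm, which drives KLF2 and KLF4 in endothelium, 1 of 16 tested genes rose and 2 fell, a share near the 15.4% called among all genes. HDAC9, a class IIa deacetylase that binds and holds back MEF2 factors, fell from 54.8 ± 1.96 to 43.4 ± 0.568 CPM (log2 fold change -0.34 ± 0.06; edgeR, adjusted p = 0.00127), and its groups did not overlap. MEF2A fell by 0.27 ± 0.08 on the log2 scale (adjusted p = 0.0287). The upstream kinase gene MAP3K2 rose by 0.25 ± 0.08 (adjusted p = 0.0399). MAPK7, which encodes ERK5 itself, had -0.29 ± 0.11 (adjusted p = 0.0853, and 0.0212 without DMSO 4), and MEF2C had -0.04 ± 0.07 (0.764). The MEF2A call was lost without DMSO 1 (0.0839), DMSO 4 (0.0581), AF 2 (0.0801) or AF 3 (0.103). That of MAP3K2 was lost without DMSO 1 (0.0508), DMSO 2 (0.128), DMSO 3 (0.112), AF 3 (0.109) or AF 4 (0.0728). The number lower was 4 without DMSO 4 or AF 1 and 1 without DMSO 1 or AF 3.

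Of 15 genes for corepressors and coactivators of KLF proteins, among them CTBP1, SIN3A and EP300, 0 were called by edgeR as designed or by DESeq2, and 1, SAP30, had an unadjusted p under 0.05 (log2 fold change 0.32 ± 0.14; adjusted p = 0.149). SAP30, a subunit of the SIN3A complex, was called by edgeR without DMSO 4 (0.0327), without the filter on low counts (0.0189) and with the replicate block (0.00572). Among 10 ubiquitin ligase components described as acting on KLF proteins, 3 rose, against 7.62% of all genes tested. FBXO32, an F-box gene, rose from 37.0 ± 8.81 to 54.0 ± 6.18 CPM (0.54 ± 0.13; adjusted p = 0.0132), SMURF1 by 0.24 ± 0.07 (0.0297) and BTRC by 0.31 ± 0.10 (0.0464). The call of FBXO32 was lost without DMSO 2 (0.0506) or DMSO 3 (0.0529), that of SMURF1 on dropping any library but AF 4 (0.0654 to 0.125), and that of BTRC on dropping any but DMSO 4 and AF 1 (0.0697 to 0.156) and with name stems summed (0.0933). In the list as a whole 0 calls were left without DMSO 2 or DMSO 3, and 1 without DMSO 1, AF 2 or AF 3.

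Genes described as raised by KLF2 or KLF4 moved both ways, and the inflammatory genes described as restrained by them that passed the test were higher. Of 11 tested genes in the first list 4 rose and 2 fell, where 7.62% of all genes tested were higher and 7.81% lower. The mannose receptor gene MRC1 fell from 8.05 ± 1.52 to 2.88 ± 0.394 CPM (log2 fold change -1.50 ± 0.16; edgeR, adjusted p = 2.7e-05). Thrombomodulin, THBD, an anticoagulant receptor gene that KLF2 is known to raise in endothelium, was at 49.6, 63.1, 61.5 and 48.1 CPM in DMSO replicates 1 to 4 and 38.5, 36.3, 31.9 and 39.0 CPM in AF replicates 1 to 4, a log2 fold change of -0.61 ± 0.10 (adjusted p = 0.000691) with no overlap. The prostaglandin D synthase gene PTGDS rose by 0.68 ± 0.16, and NOS3, the endothelial nitric oxide synthase gene, stayed at a low 2.98 ± 0.781 and 3.48 ± 0.266 CPM (adjusted p = 0.394). The number higher was 1 without DMSO 3, DMSO 4, AF 2 or AF 3, and 2 without DMSO 1, DMSO 2 or AF 1. In the second list 4 of 9 tested genes rose, against 7.62% of all genes tested: CXCL8, IL1B, PTGS2 and HIF1A, the last by 0.45 ± 0.09. CXCL8, IL1B and HIF1A were called with each of the 8 libraries left out. TNF, a leading NF-kB target, did not pass (log2 fold change -0.22 ± 0.13; adjusted p = 0.2804), but its AF values, 3.39 to 4.39 CPM, all lay below those of DMSO, 4.55 to 5.07 CPM. CXCL8 was at 9.13, 32.3, 32.5 and 12.7 CPM in AF replicates 1 to 4, highest in AF replicates 2 and 3. PTGS2 was also highest there, at 5.20, 5.87, 5.79 and 5.30 CPM in AF replicates 1 to 4. In the same order IL1B, at 8.54, 10.0, 9.33 and 9.87 CPM, and HIF1A, at 283, 269, 288 and 340 CPM, were not. A link of these values to KLF4 or KLF6 was not tested. PTGS2 and TNF here, and CD14, ITGAM, LYZ and CD68 above, were named after their values were seen.

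Around the TIEG pair KLF10 and KLF11, 4 of 19 tested TGF-beta pathway genes rose and 3 fell. Of all genes tested, 7.62% were higher and 7.81% lower. TGFBI, a secreted matrix protein gene, went up from 3216 ± 163 to 5018 ± 170 CPM (a log2 change of 0.64 ± 0.08; edgeR, adjusted p = 8.3e-05) and the corepressor gene TGIF1 by 0.48 ± 0.09, whereas the receptor gene TGFBR1 fell by 0.40 ± 0.07. Around KLF9, 9 of 18 tested glucocorticoid and clock genes rose, against 7.62% of all genes tested. The list median was 0.25, against 0.005 for all genes. The phosphatase gene DUSP1 rose from 10.9 ± 1.18 to 31.9 ± 1.66 CPM (1.54 ± 0.10), the period gene PER1 from 29.1 ± 6.96 to 59.3 ± 7.33 CPM (1.03 ± 0.14) and the clock repressor gene BHLHE40 by 0.89 ± 0.09. Each of these 3 had an adjusted p of 0.000187 or less. The other 9 tested genes of this list were not called. Among them were FKBP5 (-0.05 ± 0.10), CLOCK (-0.01 ± 0.10), BMAL1 (0.04 ± 0.10) and CRY1 (-0.06 ± 0.13), named after their values were seen. In the whole list 14 of 18 estimates were above 0. Of 12 oxidative stress genes 7 rose, against 7.62% of all genes tested. Those with the smallest p were NQO1 (0.86 ± 0.06), GCLM (0.63 ± 0.09) and HMOX1 (0.50 ± 0.08). TXNRD2, the mitochondrial thioredoxin reductase gene that KLF9 is known to repress, had -0.25 ± 0.11 (adjusted p = 0.141); its AF values, 12.98 to 17.26 CPM, lay just below those of DMSO, 17.30 to 21.1 CPM. KLF9 itself was not called in any alternative run.

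**Figure D5:**
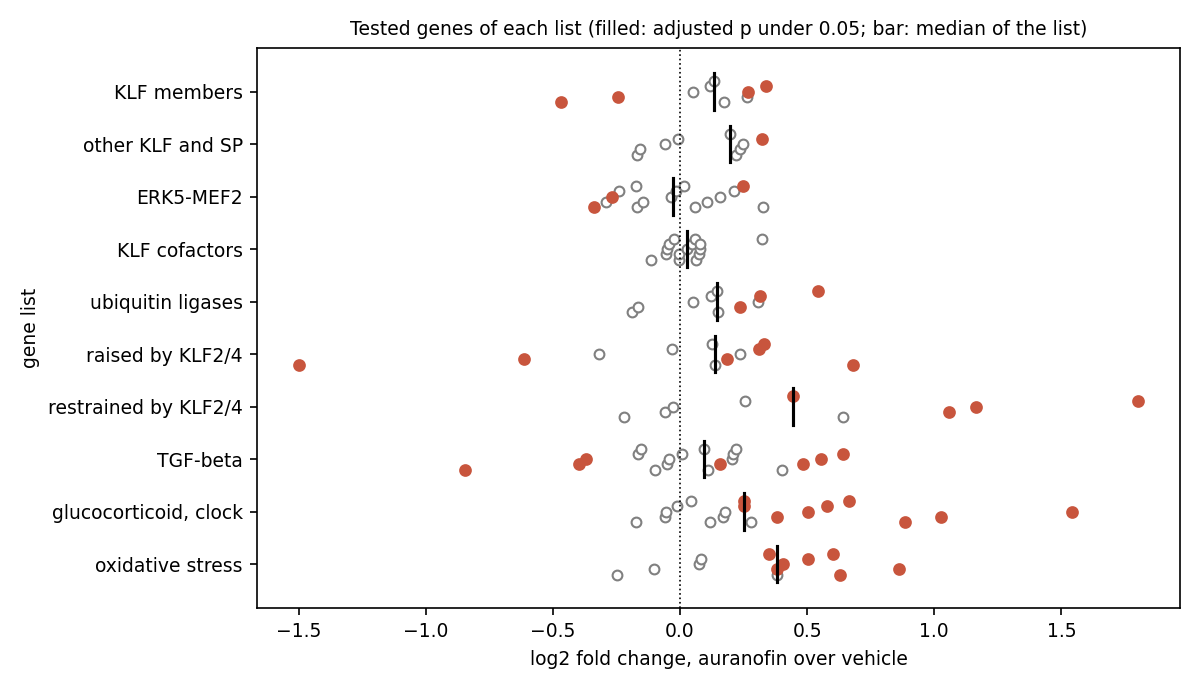
Log2 fold change, auranofin over vehicle, of every tested gene in the KLF set and the 9 lists, with genes at an adjusted p under 0.05 filled and the median of each list as a bar. The KLF genes lie between -0.47 and 0.34, close to 0 beside CXCL8 at 1.80, DUSP1 at 1.54 and MRC1 at -1.50; points are spread vertically only for legibility.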

How the data were processed

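Per the labels' protocols, poly-A libraries were made from 250 ng of RNA with a stranded preparation. The authors deposited raw gene counts, whole numbers without normalisation; STAR 2.6.1d, featureCounts, Subread 1.6.3 and GRCh38 are named per the submitters' processing notes, but no source used here gives the annotation or the strand and multi-mapping settings. Columns were matched to samples by title. Counts were analysed with edgeR 4.0.16 (R 4.3.3): TMM factors, filterByExpr, glmQLFit and glmQLFTest, auranofin against vehicle, 8 libraries, no block, two-sided, Benjamini-Hochberg over 17535 genes, threshold 0.05. An SE is the fold change over the square root of F. Within-library log2 ratios (0.5 added to counts) had exact permutation tests over 70 regroupings. No library pair agreed within sampling noise (lowest chi-square per degree of freedom 2.78), so all entered singly. That check covers only repeated counting of 1 library and cannot show that the libraries are separate cultures. No molecular identifiers are described, so counting intervals cover counting error only. The fit was tested on simulated data beforehand.

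Alternatives were DESeq2 1.42.0, other scalings and filters, a replicate block, libraries sharing a name stem summed, protein-coding genes alone, each library left out, and 5 added to counts for ratios. Named were all 10 members, per list the called genes with the smallest p (up to 3, or the 1 smallest where none was called), 10 genes fixed by name and the 3 profiles most like KLF4; the profile search was not run for KLF2, with 0 to 9 counts. BMAL1 stands for ARNTL. Members and lists were chosen with earlier results of these data known.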

Additional observations from a re-analysis of the deposited data

Results flagged for a closer look

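In 92 sets of 4 libraries checked (41 named genes and 5 ratios in both groups), 4 held a library far from the other 3, where chance alone gives about 1 in 20. KLF4 was at 22.5 CPM in DMSO replicate 4, against 23.7 to 23.9 CPM in the other DMSO libraries. GCLM, a glutathione synthesis gene, was at 33.1 CPM in DMSO replicate 4, against 29.3 to 29.7 CPM. MEF2C was at 184 CPM in DMSO replicate 4, against 172 to 174 CPM. MAPK7 was at 11.6 CPM in AF replicate 4, against 14.4 to 14.6 CPM in the other AF libraries. DMSO replicate 4 was the shallowest library, with 19336073 counts.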

How the results depend on the processing

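With library totals alone, 183 genes were higher and 700 lower, against 1336 and 1369, so 20.7% of calls were higher, against 49.4%. In that setting 0 KLF members were higher and 1 was lower (KLF16), 7 list genes were higher and 4 lower, against 33 and 7, and the estimates of KLF4 (-0.056), KLF9 (-0.10) and KLF13 (-0.019) turned negative. The replicate block gave 2102 genes higher and 2086 lower, 5 KLF members higher (KLF7, KLF11 and KLF13 joined) with 2 lower, and 12 list genes lower. The labels give no pairing, so the block was not taken as the design. Same-numbered libraries had correlations of deviations from the group means of 0.087, 0.12, 0.028 and 0.19, all positive. Those of differently numbered libraries ran from -0.13 to 0.038. Whether the libraries were paired was not tested. As a hint from the data, 3 of 4 AF libraries correlated best with their own number; AF replicate 3 did so with DMSO replicate 2 (0.038). Leaving out 1 library gave 768 (DMSO replicate 2) to 1462 (AF replicate 4) genes higher, 833 (AF replicate 3) to 1502 (AF replicate 4) lower, with 779 and 869 on dropping DMSO replicate 3, 1 to 2 KLF members higher and 1 to 2 lower. In these fits list genes numbered 22 to 31 higher and 6 to 9 lower, with 27 and 9 when AF replicate 1 was dropped. SP1 ran from -0.022 to 0.013 and MEF2C from -0.10 to 0.010, and neither was called: the sign of SP1 changed on dropping DMSO replicate 4 or AF replicate 4, that of MEF2C on dropping AF replicate 2 or AF replicate 3. DESeq2, the 2 other filters, summed name stems and protein-coding genes alone each gave 3 KLF members higher and 2 lower, and DESeq2 size factors 2 and 2. The cause of these shifts was not tested. Ratio differences moved by less than 1 SD under each alternative run, though KLF2/KLF4 changed sign without DMSO replicate 1 or AF replicate 1.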
